A study of Mus musculus with 12 samples.

Results

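Ligand-activated nuclear receptors for retinoids, vitamin D, fatty acids and glucocorticoids were examined in allergen-primed CD4+ T cells. The 8 genes were Rxra and Rxrb (retinoid X receptors), Rara and Rarg (retinoic acid receptors), Vdr (vitamin D receptor), Ppard and Pparg (peroxisome proliferator-activated receptors) and Nr3c1 (glucocorticoid receptor), taken by gene symbol from 40840 symbols listed for each library. Of these 8 genes, 7 passed the filter on low counts and were among the 13570 genes tested. Pparg did not pass. Nr3c1 is the only steroid receptor among them, since PPARs bind fatty acids and their derivatives. The set was selected on the Rxra counts of the 6 Day 3 libraries, which were higher without IL-6, so the Day 3 comparison of recipients is given for these genes as a description, with no test.

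A nuclear receptor is a transcription factor that changes its activity when a small lipophilic ligand binds it. RXRs pair with RARs, VDR, PPARs and the oxysterol receptors (LXRs) to bind DNA, so the supply of RXR is shared among several ligand pathways. The glucocorticoid receptor is held in the cytoplasm by HSP90 chaperones until its ligand binds. In T cells, retinoic acid is known for inducing gut-homing receptors and for shifting the balance between regulatory T cells and Th17 cells, while vitamin D and glucocorticoids are known for dampening effector responses.

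RNA-seq was available for donor OTII cells, CD4+ T cells whose transgenic T-cell receptor recognizes an ovalbumin (OVA) peptide. They had been transferred into WT mice or into Il6-/- mice, which cannot make IL-6, and both kinds of recipient had been sensitized through the nose with 100 µg of house dust mite (HDM) extract of high endotoxin content and 5 µg of endotoxin-free OVA. The donor cells were thus the same in all groups and the recipients differed, so Il6 counts in the donor cells were no check of the labels. OTII cells were sorted from the mediastinal lymph nodes (mLNs) on Day 3 or Day 5, giving 4 groups of 3 replicates: WT Day 3, Il6-/- Day 3, WT Day 5 and Il6-/- Day 5. The days are those of the labels, and the text of the series adds that the manuscript counted its days from 0 and not from 1. The tissue field of the labels names blood, in contrast to the series text. No label says whether the replicates came from separate animals, so every p-value measures the spread between these samples, which may be technical.

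Each library held between 16125947 and 26111657 counts on genes. All 9 CD4+ T-cell markers examined (among them Cd3e, Cd4 and Lck) were above 1 CPM (reads of a gene scaled to the TMM-adjusted size of its library) in all 12 libraries, with summed levels of 7800 to 14700 CPM. Summed markers of B cells (8 genes) lay between 6.59 and 17.1 CPM, of myeloid and dendritic cells (14 genes) between 16.9 and 62.7 CPM, of CD8+ T cells and NK cells (7 genes) between 62.6 and 114 CPM, and of lung epithelium (7 genes) between 0.634 and 23.7 CPM. The stromal sum, 83.2 to 154 CPM, had 1 of its 7 genes above 1 CPM in all 12 libraries. The 5 regulatory T-cell markers summed to 306 to 448 CPM. Most of this sum was Ctla4, Tnfrsf18 and Ikzf2, while Foxp3, the defining marker, lay between 1.92 and 10.1 CPM. The sum is thus no measure of Foxp3-expressing cells. In bulk samples, fewer cells of a type and less RNA per cell cannot be told apart.

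Rxra and Rxrb carried the main contrast, and the DNA before their annotated starts is shown to let the 2 genes be compared. Rxra (GRCm39 chr2:27566452-27653330, forward strand) has annotated first exons far apart, and the counts per gene do not separate them. The 3 stretches below end at the base before the first exon of GENCODE vM39 transcripts Rxra-201, Rxra-202 and Rxrb-201, contain no annotated exon, and are written in the 5′ to 3′ direction of the forward strand. Capitals mark matches, on either strand, to AGGTCA (the core motif of RXR partners) or GGGCGG (the GC box).
Rxra-201, chr2:27566756-27567005: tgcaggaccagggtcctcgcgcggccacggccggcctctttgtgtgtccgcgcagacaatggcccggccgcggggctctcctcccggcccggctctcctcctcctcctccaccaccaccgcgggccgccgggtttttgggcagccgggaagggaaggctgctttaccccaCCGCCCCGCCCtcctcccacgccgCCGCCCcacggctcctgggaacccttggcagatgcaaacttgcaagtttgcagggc
Rxra-202, chr2:27599054-27599303: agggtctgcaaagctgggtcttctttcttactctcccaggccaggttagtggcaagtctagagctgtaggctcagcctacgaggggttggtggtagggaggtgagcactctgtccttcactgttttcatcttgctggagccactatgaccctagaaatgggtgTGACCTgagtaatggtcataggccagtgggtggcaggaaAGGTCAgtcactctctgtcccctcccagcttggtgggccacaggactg
Rxrb-201, chr17:34250657-34250758: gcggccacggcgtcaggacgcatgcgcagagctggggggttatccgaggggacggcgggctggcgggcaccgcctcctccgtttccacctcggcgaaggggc

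The stretch before Rxra-201 was 71.6% G or C with 23 CpG dinucleotides and held 3 GC boxes, of which 2 overlap by 1 base. That before Rxra-202 was 55.2% G or C with 1 CpG and held 2 AGGTCA motifs and no GC box. The Rxrb stretch, cut at 102 bases by an exon of the divergent neighbour Slc39a7, was 74.5% G or C with 13 CpG and held neither motif. None of the 3 held TTCNNNGAA, the motif bound by STAT factors. Among 32851 RefSeq promoters, the 250 bases before the start held AGGTCA in 14%, GGGCGG in 32.7% and TTCNNNGAA in 7.02%, and the last 102 bases held them in 6.04%, 24.9% and 2.6%. These matches describe the sequence and say nothing about binding.

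In WT recipients on Day 3, Rxra stood at 47.0, 41.0 and 31.8 CPM in the 3 libraries (39.9 ± 7.67, SD, n = 3). In Il6-/- recipients on the same day it stood at 136, 125 and 107 CPM (123 ± 14.8, SD, n = 3). The lowest Il6-/- library lay above the highest WT library by a wide margin, and the fitted difference was 1.62 on the log2 scale (3.06-fold, SE 0.14). By this pattern the set was chosen, so it is given with no test. The difference lay between 1.48 and 1.75 when each of the 12 libraries was left out in turn. These fits reuse the libraries that chose the gene, so the range is a description and no support for the difference.

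The Day 5 libraries were not used to choose the genes. There, Rxra stood at 48.1, 45.1 and 50.3 CPM in WT recipients (47.8 ± 2.57, SD, n = 3) and at 81.4, 80.2 and 61.1 CPM in Il6-/- recipients (74.2 ± 11.4, SD, n = 3). All 3 Il6-/- libraries were again above all 3 WT libraries. Rxra was 1.55-fold higher in Il6-/- recipients (log2 fold change 0.63, SE 0.14, 95% interval 0.33 to 0.93; edgeR quasi-likelihood test, FDR 0.019). The call was lost without WT Day 5 replicate 1 (FDR 0.069), WT Day 5 replicate 2 (FDR 0.078) or Il6-/- Day 5 replicate 2 (FDR 0.061), with differences of 0.64, 0.60 and 0.60.

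Between the days, Rxra differed by 0.26 on the log2 scale in WT recipients (SE 0.14), where the libraries of the 2 days overlapped. In Il6-/- recipients its level on Day 5 was 0.605 times that on Day 3 (log2 fold change -0.72, SE 0.14), and the 2 days did not overlap. Both are descriptions, because the Day 3 libraries chose the gene.

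Summed B-cell markers differed between recipients in the same direction as Rxra. On Day 3 they lay at 6.59 to 9.17 CPM in the WT libraries and at 13.7 to 14.7 CPM in the Il6-/- libraries. On Day 5 they lay at 9.61 to 12.1 CPM and at 12.6 to 17.1 CPM. Of the 8 B-cell markers, 1 was above 1 CPM in all libraries, and the defining markers Ms4a1 and Ebf1 had a median of 0 CPM over the 12 libraries, with at most 6 and 4 counts in a library. Cd22, an inhibitory lectin of B cells, reached 7.32 CPM and was among the 5 genes most like Rxra. On Day 3 the sum for CD8+ T cells and NK cells was also higher without IL-6 (62.6 to 75.3 CPM in WT and 83.7 to 114 CPM in Il6-/- libraries), with 2 of its 7 genes above 1 CPM in all libraries and Klra1 at 0 in all. The stromal sum was lower (115 to 119 against 83.2 to 90.3 CPM), as was the CD4+ T-cell sum (8390 to 9690 against 7800 to 7960 CPM). Nearly all of the stromal sum was Pecam1, with Col1a2 and Col3a1 at a median of 0 CPM. The part of these transcripts in the Rxra difference was not tested.

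**Figure D1:**
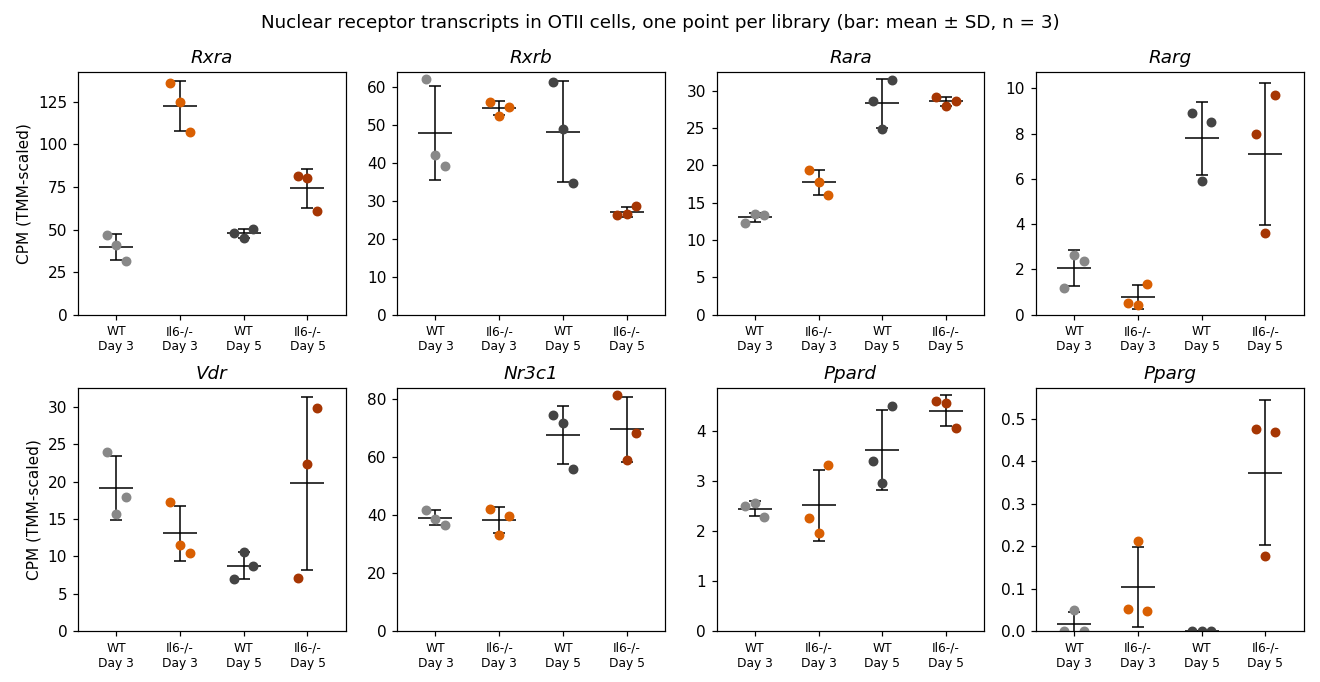
Level of each receptor gene in CPM (vertical axis, starting at 0, with its own scale in each panel) for the 4 groups on the horizontal axis; points are libraries, the wide bar is the mean and the whiskers are the SD (n = 3). Rxra sits at 107 to 136 CPM in Il6-/- recipients on Day 3, above every other group, and Rxrb sits lowest, at 26.4 to 28.6 CPM, in Il6-/- recipients on Day 5.

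Rxrb (chr17:34250759-34257376, forward strand) encodes the second RXR and followed another pattern. It stood at 62.3, 42.2 and 39.4 CPM in WT recipients on Day 3 and at 56.2, 52.5 and 54.9 CPM in Il6-/- recipients, so the 2 groups overlapped (log2 difference 0.18, SE 0.18, a description). On Day 5 it stood at 61.4, 49.0 and 34.7 CPM in WT and at 26.4, 26.5 and 28.6 CPM in Il6-/- recipients. Every Il6-/- library was then below every WT library.

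Rxrb was 1.78-fold lower in Il6-/- recipients on Day 5 (log2 fold change -0.83, SE 0.19, 95% interval -1.23 to -0.43, FDR 0.020), the opposite direction to Rxra. The WT libraries were widely spread (48.4 ± 13.4 CPM, SD, n = 3) and the Il6-/- libraries were close together (27.2 ± 1.24). The call was lost without WT Day 5 replicate 1 (difference -0.62, FDR 0.11) or replicate 2 (FDR 0.064), and without Il6-/- Day 5 replicate 2 (FDR 0.073) or replicate 3 (FDR 0.058).

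Between the days, Rxrb fell 2.01-fold in Il6-/- recipients (log2 fold change -1.0, SE 0.19, FDR 0.00025). In WT recipients the difference was 0.01 (SE 0.18, 95% interval -0.38 to 0.39, FDR 0.97). The first of these comparisons shares its Il6-/- Day 5 libraries with the comparison of recipients on Day 5.

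Since Rxra and Rxrb can be compared with each other only per length, their levels were also taken as RPKM (CPM per kilobase of annotated exon). In the 3 WT Day 3 libraries Rxra had 0.474, 0.61 and 0.508 times the RPKM of Rxrb, and in the 3 Il6-/- Day 3 libraries 1.52, 1.5 and 1.22 times. On Day 5 the ratio was 0.492, 0.578 and 0.911 in WT and 1.94, 1.9 and 1.34 in Il6-/- recipients. By RPKM, Rxrb was thus the higher of the 2 RXR transcripts in all 6 WT libraries and Rxra in all 6 Il6-/- libraries. This is a description to which the Day 3 choice of Rxra contributes. The order in WT libraries depends on the annotated exon lengths (6871 bases for Rxra, 4315 for Rxrb), which pool first exons that the counts do not separate. In CPM the WT Day 5 means were 47.8 and 48.4, and Rxra was higher in WT Day 5 replicate 3 (50.3 against 34.7). On Day 3 the summed RPKM of both genes was 16.9 ± 3.91 with WT and 30.5 ± 2.29 with Il6-/- recipients (SD, n = 3). On Day 5 it was 18.2 ± 2.94 and 17.1 ± 1.37, so the sums then lay within 1 SD of each other while the ratio differed. Rxrg, the third RXR gene, had at most 4 counts in a library.

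**Figure D2:**
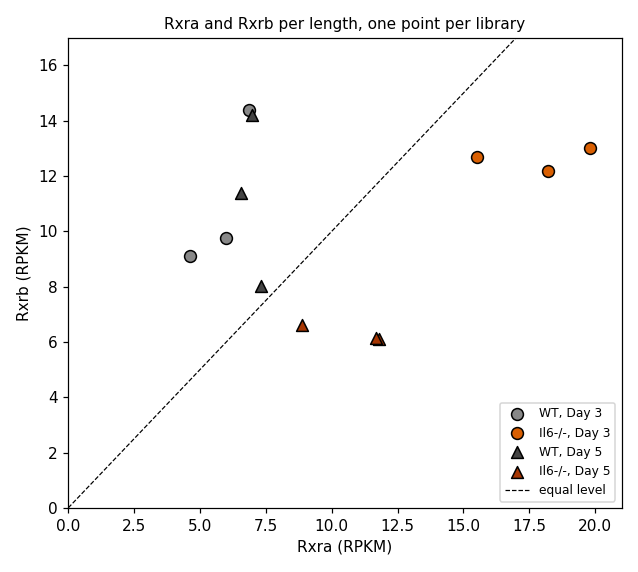
Rxra against Rxrb, both in RPKM on linear axes from 0, with 1 point per library (circles for Day 3, triangles for Day 5, greys for WT and oranges for Il6-/- recipients) and a dashed line of equal level. All 6 WT libraries lie above the line, where Rxrb is higher, and all 6 Il6-/- libraries lie below it.

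Retinoic acid receptors changed mainly with time. Rara (chr11:98818612-98865768, forward strand), the receptor through which retinoic acid acts in most T cells, had 12.3, 13.5 and 13.3 CPM in the WT libraries of Day 3 and 19.4, 17.8 and 16.0 CPM in the Il6-/- libraries. These groups did not overlap (log2 difference 0.44, SE 0.12, a description). On Day 5 the gene stood at 28.6, 24.9 and 31.4 CPM in WT and at 29.1, 28.0 and 28.6 CPM in Il6-/- recipients, with overlapping libraries (0.01, 95% interval -0.23 to 0.25, FDR 0.97).

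Rara rose 2.17-fold from Day 3 to Day 5 in WT recipients (log2 fold change 1.12, SE 0.12, FDR 1.2e-06). It rose 1.61-fold in Il6-/- recipients (0.69, SE 0.11, FDR 9.8e-05). No Day 3 library reached the lowest Day 5 library in either kind of recipient. Of its exon bases, 157 (2.49%) are shared with the antisense gene Gm46294, and the counting took no account of strand, so reads there cannot be assigned to either gene.

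Rarg (chr15:102143373-102165952, reverse strand), the retinoic acid receptor best known from skin, rested on few reads on Day 3. It had 30, 53 and 44 counts in the WT Day 3 libraries and 10, 8 and 29 in the Il6-/- Day 3 libraries, or 1.17, 2.62 and 2.39 CPM against 0.528, 0.424 and 1.37 CPM. One Il6-/- library lay within the WT range, and the log2 difference of -1.36 (SE 0.48, a description) was -2.08 without it. On Day 5 Rarg stood at 8.91, 5.92 and 8.51 CPM in WT and at 7.99, 3.63 and 9.68 CPM in Il6-/- recipients. The groups overlapped there (-0.13, 95% interval -0.96 to 0.70, FDR 0.90).

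With time Rarg rose 3.81-fold in WT recipients (log2 fold change 1.93, SE 0.42, FDR 0.0011) and 8.98-fold in Il6-/- recipients (3.17, SE 0.47, FDR 3e-05). Both rises were called in all 12 fits that left out a library. Rarb, the third RAR gene and itself a target of retinoic acid, had 2 to 23 counts per library, and 31.2% of its exon bases are shared with Top2b, so its values are uncertain.

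Vdr (chr15:97752306-97808511, reverse strand) is induced in activated T cells and binds the hormonal form of vitamin D. On Day 3 it stood at 23.9, 15.6 and 17.9 CPM in WT and at 17.3, 11.5 and 10.5 CPM in Il6-/- recipients, with overlap (log2 difference -0.55, SE 0.36, a description). On Day 5 it stood at 6.92, 10.6 and 8.70 CPM in WT and at 7.15, 22.3 and 29.8 CPM in Il6-/- recipients. Il6-/- replicate 1 lay among the WT libraries and the other 2 lay above all of them.

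The difference of 1.18 in Vdr on Day 5 did not pass (2.26-fold, SE 0.37, 95% interval 0.39 to 1.96, FDR 0.085). With the replicate number as a block, which treats same-numbered Day 5 libraries as pairs, it was 1.02 and passed (FDR 0.012). It was 1.58 with FDR 0.0024 without Il6-/- Day 5 replicate 1, and 0.75 with FDR 0.29 without Il6-/- Day 5 replicate 3. The size of this difference thus depended on which Il6-/- library was left out. With no filter on low counts it was 1.18 and passed (FDR 7.6e-10). The size was thus unchanged, and that fit called 1397 of all genes on Day 5, against 626 with the filter.

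In WT recipients Vdr fell 2.19-fold from Day 3 to Day 5 (log2 fold change -1.13, SE 0.37, FDR 0.016), with no overlap between the days. The call was lost without WT Day 3 replicate 1 (FDR 0.065) or WT Day 5 replicate 1 (FDR 0.061). In Il6-/- recipients the difference was 0.59 (95% interval -0.18 to 1.36, FDR 0.17). It was 0.99 (FDR 0.0025) without Il6-/- Day 5 replicate 1 and 0.16 (FDR 0.73) without Il6-/- Day 5 replicate 3, and with no filter on low counts 0.54 (FDR 0.006).

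Ppard (chr17:28451674-28520448, forward strand), the PPAR that is expressed in most tissues and drives fatty acid oxidation, was near the bottom of the levels. It had 37 to 96 counts per library. Its CPM were 2.5, 2.57 and 2.28 in WT Day 3, 2.27, 1.96 and 3.32 in Il6-/- Day 3, 3.41, 2.96 and 4.51 in WT Day 5, and 4.60, 4.57 and 4.06 in Il6-/- Day 5 libraries. The recipients overlapped on both days (log2 difference 0.04, a description, on Day 3, and 0.28, 95% interval -0.28 to 0.84, FDR 0.62, on Day 5). From Day 3 to Day 5 Ppard rose 1.75-fold in Il6-/- recipients (0.80, SE 0.27, FDR 0.017), a call lost without Il6-/- Day 3 replicate 1 (FDR 0.056) or replicate 2 (FDR 0.074), or with no filter on low counts (FDR 0.076). In WT recipients the difference was 0.57 (95% interval 0.00 to 1.13, FDR 0.082). The exons of Ppard share 355 and 99 bases with the antisense genes Gm65516 and Gm65835, which were not counted.

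Pparg (chr6:115337675-115468268, forward strand), known as the regulator of fat-cell genes and as a receptor expressed by Th2 cells, was close to the detection limit. On Day 3 its counts were 0, 1 and 0 in the WT libraries and 1, 4 and 1 in the Il6-/- libraries. On Day 5 they were 0, 0 and 0 against 9, 3 and 9. All 3 Il6-/- Day 5 libraries held reads and no WT Day 5 library did. Against a floor of 3 counts over the WT group, Pparg was at least 7.63-fold higher in Il6-/- recipients on Day 5. With no filter on low counts, edgeR called Pparg on Day 5 (FDR 0.03), in a fit that called 1397 genes, against 626 with the filter. An exact two-sided permutation test gave p = 0.1, the smallest that 3 against 3 libraries allow. Ppara, the third PPAR gene, had at most 5 counts in a library.

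Nr3c1 encodes the glucocorticoid receptor. On Day 3 it stood at 41.8, 38.6 and 36.7 CPM in WT and at 42.1, 33.1 and 39.6 CPM in Il6-/- recipients. On Day 5 it stood at 74.6, 71.8 and 56.0 CPM in WT and at 81.3, 59.1 and 68.3 CPM in Il6-/- recipients. The recipients overlapped on both days while the days did not overlap. The difference between recipients was -0.03 on Day 3 (a description) and 0.05 on Day 5 (95% interval -0.24 to 0.33, FDR 0.90), so on Day 5 a change of more than 0.33 in either direction lay outside the interval.

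From Day 3 to Day 5 Nr3c1 rose 1.73-fold in WT recipients (log2 fold change 0.79, SE 0.13, FDR 0.00014) and 1.82-fold in Il6-/- recipients (0.86, SE 0.13, FDR 5.3e-05). Both calls held in all 12 fits that left out a library. Of the 7877 exon bases of Nr3c1, 1165 are shared with the antisense gene Gm58395, which was not counted. Antisense reads there would be counted as Nr3c1.

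**Figure D3:**
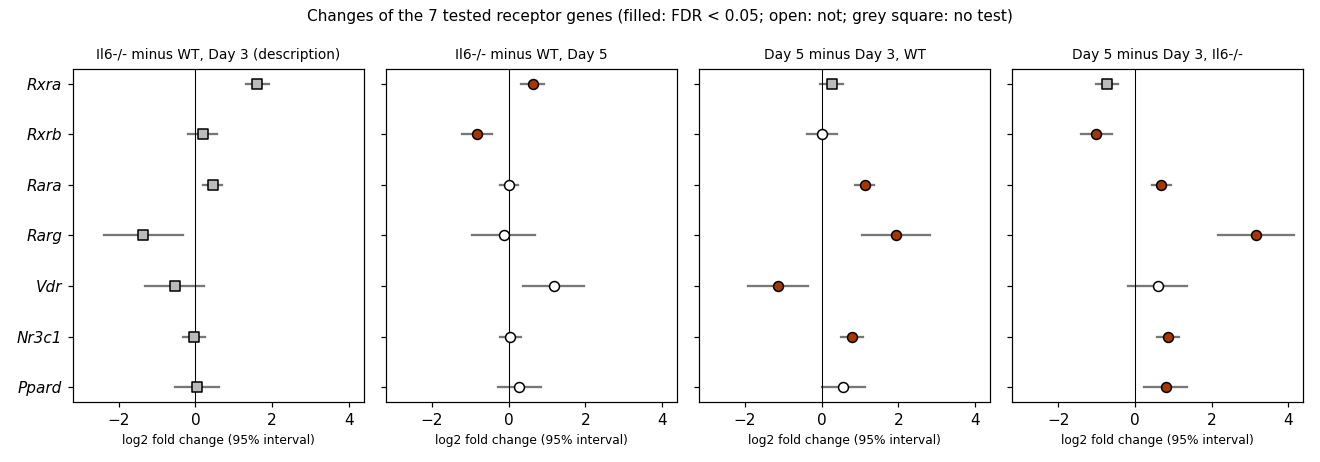
Log2 fold change (horizontal axis) of the 7 tested receptor genes in the 4 comparisons, with 95% intervals as lines; filled circles have an FDR under 0.05, open circles do not, and grey squares are values given with no test. Rxra lies to the right and Rxrb to the left of 0 on Day 5, and Rara, Rarg and Nr3c1 lie to the right of 0 in both comparisons of days.

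Counted together, 2 of the 7 tested members differed between recipients on Day 5 at an FDR under 0.05, 1 higher and 1 lower, against 4.61% of all genes tested (1.27% higher and 3.35% lower). With a 2-fold change also asked for, edgeR, DESeq2 and limma-voom each called 0 of the 7, against 1.14% of all genes by edgeR, and 1 (Vdr) had an unadjusted edgeR p under 0.05. The libraries of the recipients did not overlap for 2 of 7 members, against 19.6% of all genes. With the replicate block 3 of 7 members passed, against 11.7% of all genes. On Day 3, where the choice of Rxra used the comparison, the libraries did not overlap for 2 of 7 members (36.2% of all genes), and nothing is read from this count.

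Most of the receptor genes changed with time, as did most genes tested. Without Rxra, 4 of 6 members passed in WT recipients (3 higher and 1 lower on Day 5), against 56.7% of all genes (29.5% higher, 27.1% lower). In Il6-/- recipients 5 of 6 passed (4 higher and 1 lower), against 60.5% (30.4% higher, 30.1% lower). At 2-fold or more there were 3 of 6 in WT (22.1% of all genes) and 2 of 6 in Il6-/- recipients (25.9%). The libraries of the 2 days did not overlap for 5 of 6 members in each kind of recipient, against 63.3% and 65.8% of all genes. Whether the difference between recipients changed from Day 3 to Day 5 was not tested for the receptor genes, because the Day 3 values chose them.

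Ordered by RPKM in WT recipients on Day 3, Rxrb (11.1) came first, followed by Rxra (5.81), Nr3c1 (4.95), Vdr (3.33), Rara (2.07), Rarg (0.445), Ppard (0.326) and Pparg. Neighbours in this order did not overlap except Rxra with Nr3c1 and Rarg with Ppard. In Il6-/- recipients on Day 3 the order began with Rxra (17.9), Rxrb (12.6) and Nr3c1 (4.86), each separate from the next, and Rara (2.82) overlapped with Vdr (2.28). On Day 5 Rxrb (11.2), Nr3c1 (8.57) and Rxra (6.96) led in WT recipients and each overlapped with its neighbour. In Il6-/- recipients on Day 5 Rxra (10.8) and Nr3c1 (8.83) overlapped, and both lay above Rxrb (6.3). By mean log2 CPM over the 12 libraries, which takes no account of gene length, Rxra was above 75.6% of all genes tested. By this measure Nr3c1 was above 70.6% and Rxrb above 66.4%, while Rarg and Ppard were above 27.3% and 27.7%.

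Over the 12 libraries, log2 CPM of Rara, Rarg, Ppard and Nr3c1 moved together, with Pearson r between 0.698 (Rara with Rarg) and 0.846 (Rarg with Nr3c1). Rxra followed none of them (r from -0.528 with Rarg to 0.139 with Rara). These points share 4 groups and 2 days, so r describes mainly the group levels. Among the 5 genes most like Rxra were Npepps (r = 0.936), Plpp1 (0.931), B4galt5 (0.921) and Cd22 (0.921). They encode an aminopeptidase, a lipid phosphatase, a galactosyltransferase and the B-cell lectin named above. Rxrb was most like Kctd3 (r = 0.981), Marchf5 (0.973) and Mapk14 (0.970), whose log2 differences on Day 5 were -0.91, -0.93 and -0.93. For Rara these were Ccnd2, Nr4a3 and Sp110 (each r = 0.977), for Rarg Gm38426, Zfp36 and Mapre3 (0.975 to 0.977), for Nr3c1 Ccnl2, Zfp784 and Nipbl (0.975 to 0.981), for Ppard LOC118567836, Atxn7l1 and Vps41 (0.931 to 0.939), and for Vdr Angptl2, Coro2b and Rsph1 (0.897 to 0.955).

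The wider pathways were described with 9 lists of 143 other genes, of which 92 were tested. Between recipients, 26 of the 92 passed on Day 3 (17 higher and 9 lower without IL-6, 28.3% against 13.7% of all genes) and 7 on Day 5 (5 higher and 2 lower, 7.61% against 4.61%). Between the days, 58 passed in WT (34 higher, 24 lower, 63% against 56.7% of all genes). In Il6-/- recipients 68 passed (40 higher, 28 lower, 73.9% against 60.5%). With the replicate block 19 of the 92 passed on Day 5, 11 higher and 8 lower, against 11.7% of all genes. Without WT Day 3 replicate 2, 15 passed on Day 3, and without WT Day 5 replicate 1, WT Day 5 replicate 2 or Il6-/- Day 5 replicate 3, 3 or 4 passed on Day 5.

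Of 41 other nuclear receptor genes, 19 were tested. Nr4a3, an orphan receptor induced through the T-cell receptor, was higher on Day 3 (1.00, SE 0.22, FDR 0.0072) and not called on Day 5 (-0.02, FDR 0.98). It was the listed receptor that was higher without IL-6 on Day 3. With time, 9 rose and 1 fell in WT (52.6% called, against 56.7% of all genes). In Il6-/- recipients 10 rose and 1 fell (57.9% against 60.5%). Nr4a1, also an orphan receptor, rose by 1.33 and 1.24 and Thra (thyroid hormone receptor) by 1.61 and 0.92 on the log2 scale. The Thra call in Il6-/- recipients was lost with the 2 groups alone (FDR 0.065) and without Il6-/- Day 3 replicate 2 or 3 or Il6-/- Day 5 replicate 1 or 3 (highest FDR 0.16).

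Coregulators, the proteins that receptors recruit to activate or silence genes, had 18 tested of 19. Between recipients 1 passed on each day (5.56%, against 13.7% of all genes on Day 3 and 4.61% on Day 5). It was Ncoa2, a coactivator, which was 0.30 higher on Day 3 (FDR 0.031) and 0.39 higher on Day 5 (SE 0.09, FDR 0.020). The Day 3 call held in 7 of 12 fits that left out a library, being lost without any Il6-/- Day 3 library or WT Day 3 replicate 2 or 3 (highest FDR 0.14), and was lost with upper-quartile (FDR 0.055) or no scaling (FDR 0.092). The Day 5 call held in 8 of 12, being lost without replicate 1 or 2 of WT or replicate 2 or 3 of Il6-/- Day 5 (highest FDR 0.10), and was lost with the 2 groups alone (FDR 0.10). Under the replicate block 3 of 18 passed on Day 5 (11.7% of all genes), the others being Ncoa3 (0.39, FDR 0.011), also a coactivator, and Nrip1 (-0.43, FDR 0.038). Between the days, 9 rose and 3 fell in WT (66.7%, against 56.7% of all genes). In Il6-/- recipients 9 rose and 5 fell (77.8% against 60.5%). Nrip1, a corepressor, rose most in WT recipients, by 1.25 (SE 0.14, FDR 2e-06), and by 0.86 in Il6-/- recipients.

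Retinoid metabolism was represented by 6 tested genes of 18, since the enzymes that make and break down retinoic acid (Aldh1a1, Aldh1a2, Aldh1a3, Cyp26a1, Cyp26b1, Cyp26c1) had at most 6 counts in a library. Stra6, a membrane receptor for the retinol-binding protein, was higher in Il6-/- recipients on both days. It had 104, 45 and 62 counts in WT and 352, 247 and 215 in Il6-/- libraries on Day 3 (log2 fold change 2.11, SE 0.34, FDR 0.00087). On Day 5 it had 4, 2 and 9 counts against 30, 30 and 15 (2.43, SE 0.50, FDR 0.012). The Day 5 call was lost without WT Day 5 replicate 1 (FDR 0.064), WT Day 5 replicate 2 (FDR 0.064) or Il6-/- Day 5 replicate 2 (FDR 0.051), by limma-voom (FDR 0.12) and with the 2 groups alone (FDR 0.062). The recipients did not overlap on either day, and the gene fell with time (-3.67 in WT and -3.34 in Il6-/- recipients). Dhrs3, which turns retinal back into retinol and is induced by retinoic acid, was 0.91 higher on Day 3 (SE 0.23, FDR 0.015), a call lost without WT Day 3 replicate 2 or 3 or Il6-/- Day 3 replicate 1 (highest FDR 0.083), and rose with time by 1.85 and 1.36. It passed on Day 5 too with the replicate block (0.43, FDR 0.020). In all, 2 of the 6 passed on Day 3 (33.3%, against 13.7% of all genes) and 1 on Day 5 (16.7% against 4.61%), all higher. Between the days, 2 rose and 3 fell in WT (83.3% against 56.7%). In Il6-/- recipients 1 rose and 3 fell (66.7% against 60.5%).

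Genes known to respond to retinoic acid (10 listed, 8 tested, Stra6 and Dhrs3 among them) gave 2 higher and 1 lower on Day 3 and 1 higher on Day 5. The shares were 37.5% on Day 3, against 13.7% of all genes, and 12.5% on Day 5, against 4.61%. The lower gene was Itgb7, the beta chain of the gut-homing integrin, with 743 ± 38.7 CPM against 398 ± 87.6 CPM without IL-6 on Day 3 (-0.90, SE 0.13, FDR 0.00037). Its partner chain Itga4 differed by -0.17 (FDR 0.26). With the replicate block 4 of the 8 passed on Day 5, against 11.7% of all genes. These were Itga4 (0.25, FDR 0.034) and Hic1 (-1.04, FDR 0.014) beside Stra6 and Dhrs3. Between the days 1 rose and 2 fell in WT (37.5%, against 56.7% of all genes). In Il6-/- recipients 4 rose and 2 fell (75% against 60.5%). Hic1, a repressor induced by retinoic acid in T cells, fell in both kinds of recipient (-1.74 in WT, -2.96 in Il6-/-).

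For vitamin D, 4 of 12 genes were tested. Cyp24a1, the enzyme that inactivates vitamin D and the most responsive target of VDR, had 1 count in all libraries together, and Cyp27b1, which makes the active hormone, had 2 to 15 counts per library. Trpv6, a calcium channel, was the gene called on Day 3 (-1.14, SE 0.34, FDR 0.037). That call was lost without WT Day 3 replicate 1 or 2 or Il6-/- Day 3 replicate 1 or 3 (highest FDR 0.14), with no filter (FDR 0.061) and by limma-voom (FDR 0.056). On Day 5 edgeR called 0 of the 4 (4.61% of all genes), with 0 at an unadjusted p under 0.05 and 0 by DESeq2 or limma-voom. Between the days 1 fell in WT (Pdia3, -0.50), 25% against 56.7% of all genes. In Il6-/- recipients 1 rose (Trpv6, 1.23) and 1 fell (Pdia3, -0.52), 50% against 60.5%.

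PPAR target genes, which take up, store and burn fatty acids, had 11 tested of 15. On Day 3, 5 were higher and 1 lower in Il6-/- recipients, 54.5% against 13.7% of all genes. On Day 5, 1 was higher, 9.09% against 4.61%. Plin2, the coat protein of lipid droplets, passed on both days, at 13.5 ± 1.39 against 23.9 ± 1.09 CPM on Day 3 (0.82, SE 0.13, FDR 0.00095) and 7.08 ± 0.835 against 12.6 ± 1.17 CPM on Day 5 (0.83, SE 0.14, FDR 0.0044). Acadl and Acaa2, enzymes of fatty acid oxidation, were higher on Day 3 by 0.37 (FDR 0.021) and 0.42 (FDR 0.0082). Cd36, a fatty acid transporter, had 1, 2 and 2 counts in WT and 23, 33 and 35 in Il6-/- libraries on Day 3. Fabp4, a fatty acid carrier and a classical target of PPARγ, went the other way, with 32, 26 and 23 counts against 2, 8 and 1. Both rest on few reads, and the Fabp4 call was lost without WT Day 3 replicate 2 or Il6-/- Day 3 replicate 1 or 3 (highest FDR 0.082). The Acadl call was lost without WT Day 3 replicate 2 or 3 or Il6-/- Day 3 replicate 2 (highest FDR 0.10). Between the days 1 rose and 4 fell in WT (45.5%, against 56.7% of all genes). In Il6-/- recipients 2 rose and 7 fell (81.8% against 60.5%). Fabp5 fell in both (-2.43 and -2.23).

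All 8 LXR response genes were tested, and LXRs need RXR as partner. Scd2, a fatty acid desaturase, was 0.49 higher in Il6-/- recipients on Day 3 (SE 0.14, FDR 0.031) and 0.53 higher on Day 5 (SE 0.14, FDR 0.048), and it was the gene called on each day. The Day 5 call held in 2 of 12 fits that left out a library (without WT Day 3 replicate 1 or Il6-/- Day 5 replicate 1) and was lost by limma-voom (FDR 0.06) and with the 2 groups alone (FDR 0.091). The Day 3 call held in 8 of 12, being lost without WT Day 3 replicate 2 or 3 or Il6-/- Day 3 replicate 1 or 3 (highest FDR 0.13), and was lost with no scaling (FDR 0.059). The cholesterol transporters rose strongly with time. Abca1 rose by 4.68 (SE 0.42, FDR 3.1e-07) in WT and by 3.61 (SE 0.39, FDR 1.4e-06) in Il6-/- recipients, and Abcg1 by 1.41 and 1.25. Mylip, which degrades the LDL receptor, rose by 1.58 and 2.19, while Srebf1 and Scd2, of fatty acid synthesis, fell (-0.63 and -1.04 in WT, -0.57 and -1.01 in Il6-/- recipients). In total 3 rose and 4 fell in WT (87.5%, against 56.7% of all genes). In Il6-/- recipients 3 rose and 3 fell (75% against 60.5%).

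**Figure D4:**
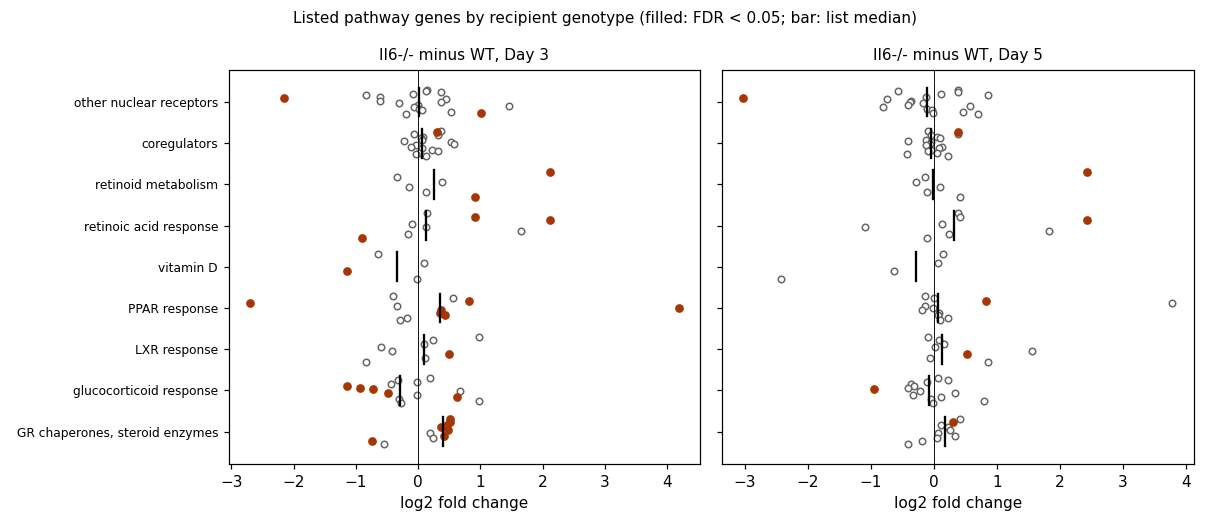
Log2 fold change of listed pathway genes (points, 1 per tested gene; a gene in 2 lists is drawn in both) between Il6-/- and WT recipients on Day 3 and Day 5; filled points have an FDR under 0.05 and the vertical bar is the list median. On Day 3 the PPAR response and the glucocorticoid receptor chaperones have medians of 0.35 and 0.39, and on Day 5 7 genes are filled.

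Of the glucocorticoid response genes, 14 of 16 were tested. On Day 3, 5 passed (35.7%, against 13.7% of all genes), 1 higher and 4 lower in Il6-/- recipients. Sgk1, a kinase, differed by -1.14 (SE 0.18, FDR 0.00087), and Zfp36 and Zfp36l2, which destabilize mRNAs, by -0.94 (FDR 0.0017) and -0.73 (FDR 0.011). Ddit4 was the fourth lower gene (-0.49, FDR 0.014). The higher one was Il7r, the IL-7 receptor (0.62, SE 0.16, FDR 0.017). On Day 3 the Zfp36l2 call was lost without WT replicate 2 or Il6-/- replicate 3 (highest FDR 0.062), that of Ddit4 without WT or Il6-/- replicate 3 (0.072) and that of Il7r without WT replicate 1 or 2 or Il6-/- replicate 2 (0.085). On Day 5 Zfp36l2 passed (-0.94, SE 0.17, FDR 0.0052). Under the replicate block 4 of 14 passed on Day 5, all lower, against 11.7% of all genes. Nfkbia (-0.32, FDR 0.0073, named after its value was seen), Dusp1 (-0.34, FDR 0.015) and Zfp36 (-0.42, FDR 0.034) were added. These differences stood beside Nr3c1 levels that overlapped between recipients on both days.

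With time, 9 of the 14 rose and 1 fell in WT (71.4%, against 56.7% of all genes). In Il6-/- recipients 11 rose and 1 fell (85.7% against 60.5%). Per1, the clock gene, rose by 1.37 and 1.28, Tsc22d3 (GILZ) by 0.83 and 1.38, Dusp1 by 1.80 and 1.89 and Klf9 by 3.17 and 2.28. Fkbp5, also a classical glucocorticoid target, was the gene that fell (-1.06 and -1.18). The list had a median of 0.94 in WT and 1.17 in Il6-/- recipients, beside 0.09 over all genes in each.

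Chaperones of the glucocorticoid receptor and enzymes of steroid metabolism had 10 tested of 12. On Day 3, 6 were higher and 1 lower in Il6-/- recipients (70%, against 13.7% of all genes). Hsp90ab1, the main chaperone, had 2700 ± 213 CPM with WT and 3830 ± 288 CPM with Il6-/- recipients (0.50, SE 0.08, FDR 0.00095), and its partners Ptges3 and Fkbp4 were 0.46 (FDR 0.0014) and 0.48 (FDR 0.0063) higher. Hsd11b1, the enzyme that regenerates active glucocorticoid, was the lower one, at 131 ± 19.7 against 78.3 ± 8.35 CPM (-0.74, SE 0.11, FDR 0.00038). On Day 5 Hsp90ab1 was the gene that passed (0.31, FDR 0.045). That call held in 5 of 12 fits that left out a library (highest FDR 0.15), being lost without replicate 2 or 3 of either Day 3 group, WT Day 5 replicate 1 or 2 or Il6-/- Day 5 replicate 3, and was lost with upper-quartile scaling (FDR 0.054) and with the 2 groups alone (FDR 0.13). Under the replicate block 4 of 10 passed on Day 5, all higher, against 11.7% of all genes. Hsp90aa1 (0.41, FDR 0.0013), Hspa8 (0.34, FDR 0.0025) and Fkbp4 (0.25, FDR 0.023) were added. From Day 3 to Day 5, 8 of 10 fell and 1 rose in each kind of recipient. That was 90% in each, against 56.7% of all genes in WT and 60.5% in Il6-/- recipients. Among those that fell were Fkbp4 (-1.58 and -1.80), Stip1 (-1.53 and -1.67) and Hsp90aa1 (-1.09 and -1.18), whereas Hsd11b1 rose by 1.09 and 1.65.

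**Figure D5:**
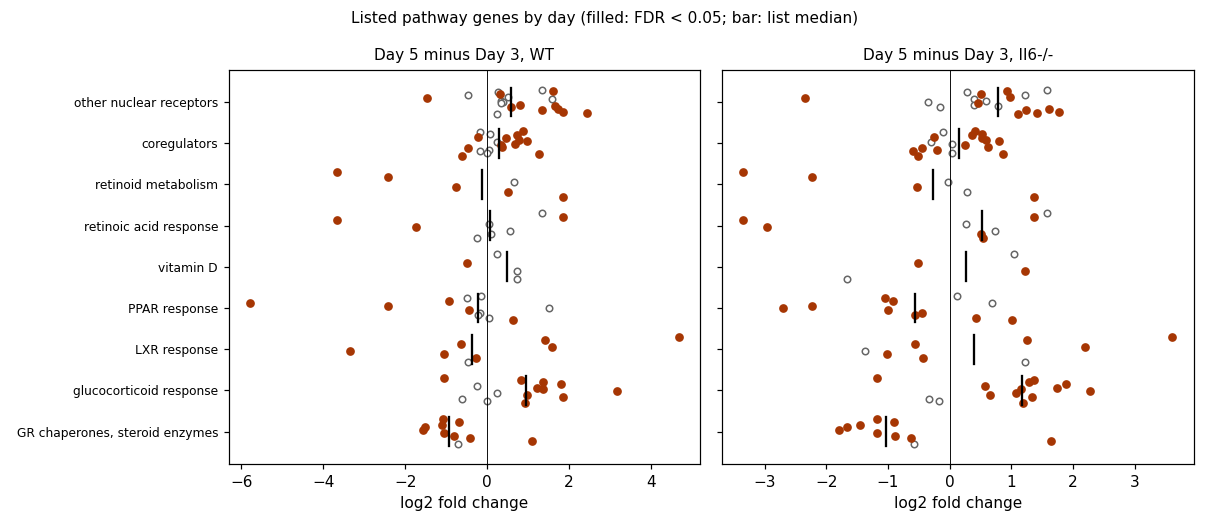
Log2 fold change of the same listed genes from Day 3 to Day 5 in WT recipients and in Il6-/- recipients, with points, filling and median bars as for the comparison of recipients. The chaperone list lies mostly left of 0, with medians of -0.93 and -1.04, and the glucocorticoid response list mostly right of 0, with medians of 0.94 and 1.17.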

How the data were processed

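OTII cells were profiled in 12 libraries of ultra-low input poly(A) RNA, sequenced as single reads of 50 bp. After adapter trimming (Trim Galore 0.4.4) and alignment to GRCm39 (STAR 2.5.2a), the authors made the deposited raw read counts per gene with HTSeq-count 0.6.1p1, unstranded, so antisense reads are counted too. A deposited normalized table was not used here.

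Differential expression was computed here by edgeR 4.0.16 under R 4.3.3 (filterByExpr, TMM, quasi-likelihood test, 1 coefficient per group, all 12 libraries). FDR is the Benjamini-Hochberg value over 13570 genes, and a gene was called under 0.05. Fold changes are shrunken only by the small default prior count of the edgeR fit, which matters for genes with few reads. CPM used TMM-scaled library sizes, and RPKM used GENCODE vM39 exon lengths. No pair of replicates agreed within sampling noise (chi-square per degree of freedom at least 5.54).

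Samples were grouped by the genotype and time labels. The members and the lists (other nuclear receptors, coregulators, retinoid metabolism, retinoic acid, vitamin D, PPAR, LXR and glucocorticoid response, glucocorticoid receptor chaperones and steroid enzymes, and cell-type markers) were chosen with earlier results of these data known. The text names listed genes that changed at least 2-fold in some comparison or had the 3 smallest p-values of their list on Day 3 or Day 5, and the 5 genes (Rxra) or 3 genes (other members) of highest Pearson r. Some genes that these rules name are not reported here. Alternatives were RLE, upper-quartile and no scaling, 2 other filters, DESeq2 1.42.0, limma-voom (limma 3.58.1), a replicate block, the 2 groups alone and leaving out each library. Same-numbered Day 5 libraries deviated together (correlations 0.243, 0.206 and 0.129), and the block took their numbers as pairs. No correlation was computed between libraries of different numbers, so whether the numbers mark pairs was not tested. Floors of 3 counts cover counting error only.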

Additional observations from a re-analysis of the deposited data

Results flagged for a closer look

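For 5 listed genes, the difference between Il6-/- and WT recipients changed between the days by the interaction term of the edgeR fit (Day 5 minus Day 3, log2 scale). Hsd11b1 changed by 0.56 (SE 0.15, FDR 0.043), being lower in Il6-/- recipients on Day 3 (-0.74) and closer on Day 5 (-0.18). Itgb7 changed by 0.80 (SE 0.18, FDR 0.023), from -0.90 to -0.10. Ddit4 changed by 0.82 (SE 0.17, FDR 0.015), from -0.49 to 0.33, the Day 5 value not being called. Acadl changed by -0.55 (SE 0.14, FDR 0.039), from 0.37 to -0.18. Fabp4 changed by 6.48 (SE 1.24, FDR 0.011), which rests on 23 to 32 counts in WT against 1 to 8 in Il6-/- libraries on Day 3 and on 0 to 1 against 4 to 7 on Day 5, so the size depends on the prior count of the fit. The FDR of Acadl and Hsd11b1 was above 0.05 in most fits that left out a library, and that of Itgb7 without WT Day 3 replicate 2 or 3 or Il6-/- Day 3 replicate 1 or 2.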

How the results depend on the processing

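Rxra and Rxrb on Day 5 were called, in opposite directions, under all 9 alternatives that kept the 12 libraries or the 2 groups compared (Rxra 0.62 to 0.68, Rxrb -0.84 to -0.78). The number higher on Day 5 among the 7 tested members was 2 with no filter on low counts and 2 with the replicate block, in both cases with Vdr added (Pparg, which could be tested with no filter alone, then passed too, FDR 0.03), and the block changed no other call among the members. Leaving out 1 library gave 0 to 2 higher and 0 to 1 lower members on Day 5 and 0 to 1 lower members with time in WT recipients. Listed genes called on Day 5 numbered 18 with no filter, 11 by DESeq2, 19 with the replicate block and 3 with the 2 groups alone, and 3 to 10 when 1 library was left out. On Day 3 they numbered 15 to 29 when 1 library was left out. All genes called on Day 5 numbered 626, and 1397 with no filter, 1127 by DESeq2, 1592 with the block, 359 with the 2 groups alone, and 225 to 1169 without 1 library. The cause was not tested. Values near 0 changed sign. Without 1 library, Rara on Day 5 lay between -0.0686 and 0.0961, Nr3c1 between -0.0809 and 0.1769, and Rarg between -0.4159 and 0.2082. Rxrb between days in WT recipients was -0.0267 with RLE scaling, -0.059 with no filter, -0.025 by DESeq2, -0.0251 by limma-voom and -0.0194 with the 2 groups alone, and between -0.2029 and 0.24 without 1 library. None of these was called. Upper-quartile scaling moved the median of all genes between days by 0.20 in WT and 0.23 in Il6-/- recipients, and no scaling moved it by 0.15 in Il6-/- recipients. Upper-quartile scaling made Ppard pass in WT recipients. Same-numbered libraries were not taken as pairs on Day 3 (correlations 0.033, 0.060 and 0.032) or between days (0.071, -0.040 and -0.045 in WT and -0.071, -0.049 and -0.062 in Il6-/- recipients). There the block gave 2658, 7352 and 7860 genes called against 1861, 7688 and 8211, so calls rose under it on Day 3 too. Depth limits Pparg, Rarg, Cd36 and Fabp4 most.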
